A study of Mus musculus with 22 samples.

Results

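A set of 10 genes of the NF-κB system were followed in neutrophils sorted from the mouse ileum after allogeneic transplantation. The set held the subunit genes Nfkb1, Nfkb2, Rel and Relb, the IκB genes Nfkbia, Nfkbie and Nfkbiz, and the inducible regulators Tnfaip3, Zc3h12a and Tnfaip2. They were chosen by name, as 10 of the 23091 genes in the tables, and not by their values, though earlier results of these data were known. The libraries were made by CEL-Seq2, a plate method in which each cell's transcripts are tagged at their 3′ end with a well barcode and a molecular identifier, so a gene's count does not scale with its length. Recipients in both groups were BALB/c mice 7 to 9 weeks old, irradiated with 2 doses of 5 Gy and given 5000000 C57BL/6 bone marrow cells. In the group with acute graft-versus-host disease (aGVHD, 12 libraries) they also received 400000 donor T cells. The control group, with 10 libraries, received no T cells. Donors were C57BL/6 mice (the labels give C57BL/6N females 7 to 10 weeks old). Terminal ileum was taken on day 21, and the sort, CD45+H2kb+CD11b+Ly6G+, selects neutrophils of donor origin.

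NF-κB proteins are dimeric transcription factors that are held in the cytoplasm by IκB proteins until signals from cytokine or microbial receptors cause the IκB to be degraded. Several of their targets are their own brakes: IκBα (Nfkbia) returns the factor to the cytoplasm, the ubiquitin-editing enzyme A20 (Tnfaip3) silences the upstream adaptors, and the endonuclease Regnase-1 (Zc3h12a) cuts inflammatory mRNAs. In neutrophils, which live briefly and respond quickly to microbes, this circuit is known to control cytokine production and survival.

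Feedback genes of this circuit are known to carry NF-κB binding sites near their own start, so promoter windows were searched for the NF-κB consensus by name, on both strands. RefSeq windows of GRCm38.p6, from 250 bases before to 50 bases after a start, were available for 7 of the 10 genes, and 6 of these 7 had a match; Zc3h12a had none in its window. Over the whole table, 2581 of 27025 genes (9.55%) had a match. For each of the 6 genes the stretch that holds the matches before 1 start is shown 5′ to 3′ on the strand of the gene, with matches in capitals and overlapping matches run together; Nfkb2 has 3 windows in the table, all with a match, and 1 is shown. A match is a run of letters and no evidence of binding.
Nfkbia, chr12:55492648-55492701, minus strand: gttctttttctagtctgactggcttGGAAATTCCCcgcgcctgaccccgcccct
Nfkbie, chr17:45555569-45555628, plus strand: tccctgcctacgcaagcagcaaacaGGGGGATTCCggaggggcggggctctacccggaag
Tnfaip3, chr10:19015411-19015560, minus strand: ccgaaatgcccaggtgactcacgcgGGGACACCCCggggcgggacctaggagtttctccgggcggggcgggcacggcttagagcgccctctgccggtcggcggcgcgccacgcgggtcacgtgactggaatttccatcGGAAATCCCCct
Tnfaip2, chr12:111442612-111442660, plus strand: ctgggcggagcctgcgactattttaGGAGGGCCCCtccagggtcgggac
Rel, chr11:23771026-23771086, minus strand: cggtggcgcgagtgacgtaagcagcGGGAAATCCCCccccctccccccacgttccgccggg
Nfkb2, chr19:46304673-46304736, plus strand: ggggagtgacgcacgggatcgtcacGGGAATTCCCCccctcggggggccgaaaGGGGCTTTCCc

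Of 4224 barcodes, 1383 reached 500 transcripts and counted as kept cells, 74 to 95 per aGVHD library and 11 to 60 per control library, from library totals of 215945 to 360054 and 45607 to 233719 transcripts. Cells with at least 5 transcripts of S100a8 and S100a9 together and at most 2 of C1qa, C1qb and C1qc, called gated cells, numbered 688 (564 in aGVHD and 124 in control libraries). The other 695 kept cells (461 and 234) lay outside those limits. Gated cells carried a median of 28 transcripts per cell in aGVHD and 27 in control libraries of the 14 neutrophil markers that the gate did not use, against 5 and 6 in other cells. Of the genes behind the sort, Ptprc (CD45) was found in 70.6% of gated and 34.2% of other cells, Itgam (CD11b) in 60.6% and 31.5%, and Ly6g in 9.59% and 1.87%. Gated cells were deeper in named genes, with a median of 1463 named transcripts per cell, against 646 in other cells. Levels are given as CPM, transcripts per 1000000 transcripts of named genes. The log2 fold changes, and the log2 CPM used for correlations, rest instead on totals that include unnamed gene models, scaled by trimmed means. Their signs can therefore differ from those of the CPM levels. B or plasma cell markers summed to as much as 92073 CPM in 1 aGVHD library and 129334 CPM in 1 control library of gated cells, with medians of 67.3 and 622 CPM, and epithelial markers to as much as 12752 and 58656 CPM, with medians of 244 and 2553 CPM. Every barcode position holds a kept cell in more than 1 library, and the number of kept cells identical to another was 0. Since the labels do not say which libraries came from separate mice, the p-values reflect spread among libraries alone, and that spread may be technical.

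In gated cells Nfkbia, Tnfaip2, Nfkbiz and Tnfaip3 were more abundant on average than any subunit gene, while Nfkbie and Zc3h12a lay near the subunits. Levels were taken per library, over the 19 libraries with at least 10 gated cells (12 aGVHD and 7 control; control replicates 5, 9 and 10 had fewer). Nfkbia averaged 6990 CPM ± 2171 (SD, n = 19), Tnfaip2 3001 ± 869, Nfkbiz 1429 ± 531 and Tnfaip3 1008.5 ± 449. Each of these 4 genes lay above the next in 18 or 19 of the 19 libraries, and Tnfaip3 lay above Nfkbie, at 300.2 CPM ± 131, in 18. Below Nfkbie came Rel at 235 ± 125, Nfkb2 at 223 ± 102, Zc3h12a at 196 ± 95.3, Nfkb1 at 140 ± 104 and Relb at 67.3 ± 60.7 CPM. From Nfkbie down, each gene differed from the next by less than the SD of that difference over libraries. Rela, the subunit that is not among the 10, averaged 111 CPM over the same libraries.

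In other cells, over the 19 libraries with at least 10 of them (all but control replicates 5, 6 and 10), the order was nearly the same, with Nfkbia at 5110 CPM ± 1663 (SD, n = 19) and Tnfaip2 at 2007 ± 829 on top. Tnfaip3, at 885 ± 443 CPM, and Nfkbiz, at 825 ± 429 CPM, did not differ beyond their spread there, Tnfaip3 being the higher in 11 libraries and the lower in 6. Rel, at 282 ± 149 CPM, came next, followed by Nfkb2 at 200 ± 118 CPM and Nfkbie at 184 ± 130 CPM. Barcodes under 500 transcripts, 2841 in all, held Nfkbia at 2134 CPM, Tnfaip2 at 736, Tnfaip3 at 359, Nfkbiz at 277 and Rel at 37.0 CPM when summed, which is lower than the mean in kept cells for each of these 5 genes.

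The first question was whether donor T cells, and the disease they cause, altered the circuit in gated cells. None of the 8 genes that could be tested passed an adjusted p of 0.05 (limma, Benjamini-Hochberg over 904 genes), where 0.111% of all genes did, namely 1 gene, Gsr (named after its value was seen), which was higher in aGVHD. Without adjustment 108 genes, Rel among them, had a p under 0.05. Nfkb1 and Relb were too low to be tested.

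Nfkbia, the gene of IκBα, ranged over 4286, 8094 and 10935 CPM (lowest, median, highest) in aGVHD and over 3906, 6268 and 8739 CPM in control libraries. The ranges overlapped, with 7 of 12 aGVHD libraries above the control mean and 5 of them above the highest control library. The log2 fold change was 0.16 (SE 0.23, 95% interval -0.31 to 0.63, limma adjusted p = 0.792).

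Nfkbiz, which encodes IκBζ, a nuclear IκB protein that helps to switch on secondary inflammatory genes, ranged over 821, 1506 and 2554 CPM in aGVHD and 603, 1389 and 1976 CPM in control libraries. Its log2 fold change was 0.05 (95% interval -0.48 to 0.57, limma adjusted p = 0.938). Nfkbie, the gene of IκBε, had 101, 303 and 459 CPM in aGVHD and 93.9, 267 and 532 CPM in control libraries, and a log2 fold change of 0.13 (95% interval -0.50 to 0.75, limma adjusted p = 0.883). For both genes the control libraries covered most of the aGVHD range.

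Tnfaip3 had 436, 1092 and 1802 CPM in aGVHD and 316, 972 and 1748 CPM in control libraries, with a log2 fold change of -0.11 (95% interval -0.76 to 0.55, limma adjusted p = 0.902). Zc3h12a had 76.1, 186 and 367 CPM in aGVHD and 76.0, 175 and 357 CPM in control libraries, with a log2 fold change of -0.11 (95% interval -0.85 to 0.62, limma adjusted p = 0.910). Tnfaip2, a gene induced by tumour necrosis factor whose protein acts in membrane protrusions, had 1458, 3134 and 4185 CPM in aGVHD and 1723, 2851 and 4780 CPM in control libraries. Its log2 fold change was -0.17 (95% interval -0.57 to 0.23, limma adjusted p = 0.725). The aGVHD medians were the higher for all 3 genes while the fold changes, with another scaling and title set as a covariate, were negative. The groups overlapped for all 3 genes, and the intervals leave room for changes of either sign.

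Among the subunits, Rel, the gene of c-Rel, stood at 105, 166 and 271 CPM in aGVHD and 86.2, 272 and 556 CPM in control libraries. All 12 aGVHD libraries lay below the control mean, 4 of 7 control libraries lay above the highest aGVHD library, and 1 control library lay below the lowest. The log2 fold change was -0.94 (SE 0.26, 95% interval -1.48 to -0.40) with an unadjusted p of 0.00157 and an adjusted p of 0.227 (limma, Benjamini-Hochberg), and without control replicate 1 it was -1.11 with an adjusted p of 0.0455. The means ran the same way within each set of libraries that the titles define. They were 178 ± 51.5 CPM (SD, n = 8) in aGVHD and 277 ± 171 CPM (n = 5) in control libraries with a date-like number in the title, and 192.4 ± 63.2 CPM (n = 4) and 440.3 ± 85.3 CPM (n = 2) in those with G1 in the title.

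Nfkb2, which encodes p100, the precursor of p52 in the non-canonical pathway, had 106, 276 and 419 CPM in aGVHD and 57.4, 125 and 304 CPM in control libraries. Although 10 of 12 aGVHD libraries lay above the control mean, the groups overlapped, and the log2 fold change of 0.62 (SE 0.37, 95% interval -0.14 to 1.39) had a limma adjusted p of 0.480. Nfkb1, which encodes p105, the precursor of p50, rested on 159 transcripts in aGVHD and 44 in control libraries, at 39.1, 142 and 275 CPM and at 0, 115 and 378 CPM. Relb, the partner of p52, had 0, 66.7 and 234 CPM in aGVHD and 0, 57.4 and 153 CPM in control libraries, with 2 and 3 libraries at 0. A difference in either gene was not detectable at this depth.

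**Figure D1:**
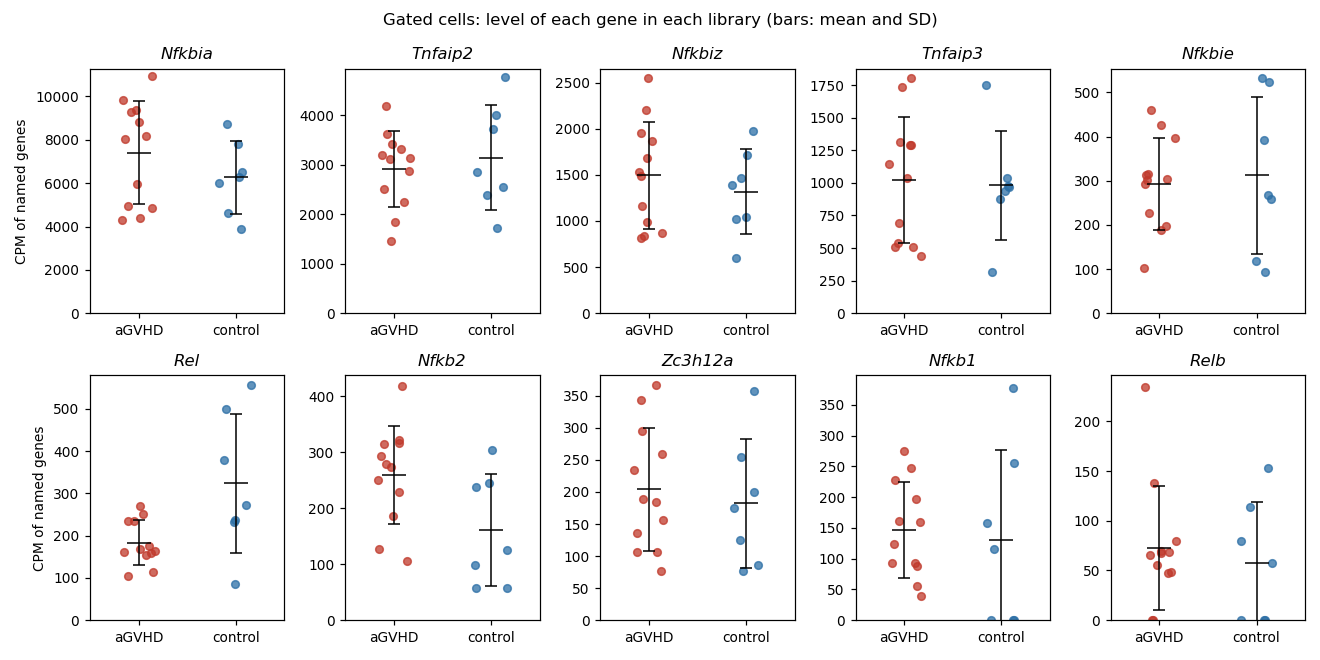
Level of each of the 10 genes (vertical axis, CPM of named genes, from 0) in gated cells of each library, with aGVHD (12 points) left of control (7 points) and bars for the mean and SD. For Rel all aGVHD points lie at 271 CPM or below while 4 control points lie above; for Nfkbia the points of both groups overlap.

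In other cells none of the 8 genes tested passed, against 0% of 1219 genes (limma, Benjamini-Hochberg; 124 genes at an unadjusted p under 0.05). Rel had 124, 201 and 425 CPM in 12 aGVHD libraries and 92.0, 367 and 704 CPM in 7 control libraries. The groups overlapped, though 11 of 12 aGVHD libraries lay below the control mean, and the log2 fold change was -0.65 (95% interval -1.29 to -0.02, limma adjusted p = 0.465). Nfkbia had a log2 fold change of 0.38 (limma adjusted p = 0.595) and Nfkbie of -0.54 (limma adjusted p = 0.647), and Nfkb2, Nfkbiz, Nfkb1, Tnfaip2 and Tnfaip3 lay between -0.27 and 0.23. Relb and Zc3h12a were too low to be tested.

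Summed over all kept cells, which let all 22 libraries enter, 1 of the 9 genes tested fell in aGVHD, and it was Rel; by the same test 8.7% of 1748 genes were called, 4.46% lower and 4.23% higher in aGVHD. Rel had 122, 179 and 313 CPM in aGVHD and 90.0, 336 and 688 CPM in control libraries, from 320 and 263 transcripts. No aGVHD library reached the control mean, 7 of 10 control libraries lay above the highest aGVHD library, and 1 lay below the lowest. The means were 196 ± 56.9 CPM (SD, n = 12) in aGVHD and 376 ± 179 CPM (SD, n = 10) in control libraries, and the log2 fold change was -0.83 (SE 0.23, 95% interval -1.31 to -0.35, limma adjusted p = 0.0293).

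This call for Rel was close to its threshold. Leaving out control replicate 2, 4, 6, 7, 8 or 9 gave log2 fold changes of -0.74, -0.79, -0.82, -0.70, -0.78 and -0.81 with limma adjusted p of 0.0641, 0.0620, 0.0536, 0.0590, 0.0586 and 0.0552, and leaving out aGVHD replicate 4 gave -0.80 with 0.0523. Within the dated titles the means were 201 ± 60.1 CPM (SD, n = 8) in aGVHD and 336 ± 202 CPM (n = 6) in control libraries (log2 fold change -0.47, limma adjusted p = 0.409), and within the G1 titles they were 184 ± 56.1 CPM (n = 4) and 435 ± 142 CPM (n = 4) (log2 fold change -1.30, limma adjusted p = 0.175).

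The makeup of the sums differed between groups beside this result. The share of kept cells inside the gate was 54.7% ± 19.9 (SD, n = 12) in aGVHD and 32.8% ± 10.6 (SD, n = 10) in control libraries. Dendritic cell markers, a class known for high Rel, summed to 276 to 946 CPM (median 565) in aGVHD and 470 to 2299 CPM (median 1303) in control libraries over all kept cells, with all 9 detected in both groups. T or NK cell markers, from lymphocytes that also use c-Rel, summed to 6.12 to 170.1 CPM (median 33.7) in aGVHD and 0 to 480.1 CPM (median 122) in control libraries, with Trac at 0 in control, and B or plasma cell markers to 11.1 to 69538 CPM (median 91.8) and 45.3 to 68509 CPM (median 881). In gated cells the dendritic cell markers summed to 259 to 964 CPM (median 500) in aGVHD and 259 to 1026 CPM (median 734) in control libraries, with Flt3 and Zbtb46 at 0 in control. The 9 mitochondrial transcripts, tested as a sign of RNA quality, had negative log2 fold changes in all 3 comparisons between groups, with medians of -0.52 in gated, -0.54 in other and -0.47 in all kept cells. Of these, mt-Co3 was itself called lower over all kept cells (-0.70, limma adjusted p = 0.0343). With plasma cell and epithelial genes left out of the sums, a choice added after seeing the data, Rel was at -0.83 over all kept cells (limma adjusted p = 0.0288). The part of the other differences in the Rel result was not tested, and fewer cells of a type and less RNA per cell cannot be told apart in such sums.

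The remaining 8 genes tested over all kept cells did not pass. Nfkbia had 3489, 6713 and 9382 CPM in aGVHD and 3289, 4898 and 6460 CPM in control libraries. Of the aGVHD libraries 10 of 12 lay above the control mean, within overlapping ranges. The difference was 0.39 on the log2 scale (95% interval 0.03 to 0.75, limma adjusted p = 0.169). The others lay between -0.17 for Nfkb1 and 0.28 for Nfkb2, with Nfkbiz at 0.27, Zc3h12a at 0.25, Tnfaip3 at 0.02, Tnfaip2 at 0.00 and Nfkbie at -0.07. Relb was too low to be tested.

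**Figure D2:**
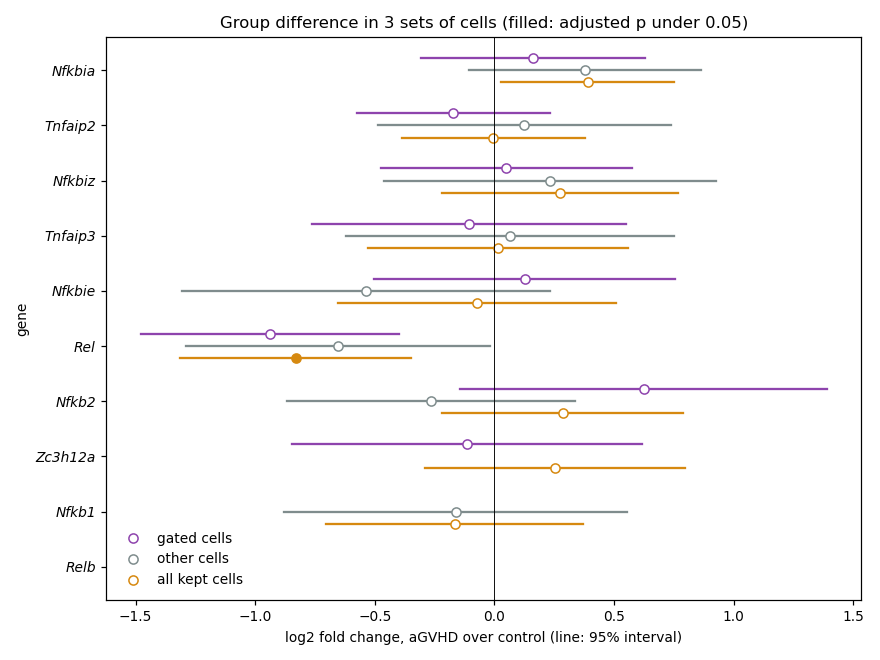
Log2 fold change of aGVHD over control (horizontal axis, with 95% intervals) for each gene in gated, other and all kept cells; filled points have an adjusted p under 0.05. Rel lies left of 0 in all 3 sets, at -0.94, -0.65 and -0.83, and is filled in all kept cells; genes too low to be tested have no point.

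The wider pathway gave calls between the groups over all kept cells, and none in gated or in other cells. Of the lists of receptors, kinases, further subunits, further negative regulators, target cytokines and other targets, no gene passed in gated or in other cells. Over all genes, 0.111% of 904 passed in gated cells and 0% of 1219 in other cells. The numbers of genes tested, in the order of these lists, were 5, 1, 1, 5, 10 and 17 in gated cells. In other cells they were 6, 1, 1, 5, 11 and 20. Over all kept cells the called genes were the kinase gene Ikbke (log2 fold change 0.96, limma adjusted p = 0.0276), 1 of 2 kinases tested, and Tnf at 1.18 and Il1rn, the gene of the interleukin-1 receptor antagonist, at 0.63, 2 of 13 target cytokines and chemokines. Of 20 other target genes, 3 rose, namely Ier3 at 1.23, Clec4e at 0.74 and Marcksl1 at 0.57, and none fell. Over all 1748 genes 4.23% rose and 4.46% fell. None of 8 receptors and adaptors, 3 further subunits and IκB proteins or 8 further negative regulators passed. The list medians were 0.47 for the cytokines and 0.31 for the other targets, against 0.01 over all 1748 genes. Among 7 mRNAs known to be cut by Regnase-1, Ier3 rose and Rel fell, and the median was 0.08. The makeup of these sums differed between the groups, as given for Rel, and its part in these calls was not tested. Of the called genes, Il1rn (0.34), Clec4e (0.68) and Marcksl1 (0.48), but not Tnf or Ier3, were also called higher in gated than in other cells. Ikbke was not among the genes tested in that comparison.

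The second comparison set gated cells against other cells of the same library, which asks where among the sorted cells these genes are most expressed. Over 18 libraries with at least 10 cells of each kind (12 aGVHD and 6 control), 4 of 7 genes tested were higher in gated cells and none lower; of 1097 genes, 52.1% were called, 22.1% higher and 30% lower (limma with library as a block, Benjamini-Hochberg). The 4 were the 3 IκB genes Nfkbiz, Nfkbie and Nfkbia, and Tnfaip2. No subunit passed, and Tnfaip3 did not pass.

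Nfkbiz had 603, 1477 and 2554 CPM (lowest, median, highest) in gated cells and 261, 680 and 1548 CPM in other cells. It was higher in gated cells in 16 of 18 libraries, with a log2 fold change of 0.85 (SE 0.14, 95% interval 0.56 to 1.13, limma adjusted p = 3.39e-05). Nfkbie averaged 288 ± 123 CPM in gated and 160 ± 80.4 CPM in other cells (SD, n = 18), a log2 difference of 0.74 (SE 0.19, limma adjusted p = 0.00224).

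Tnfaip2 averaged 3009.5 ± 894 CPM in gated and 1983 ± 846 CPM in other cells (SD, n = 18), a log2 difference of 0.57 (SE 0.14, limma adjusted p = 0.00142). Nfkbia averaged 7045 ± 2220 CPM in gated and 5136 ± 1707 CPM in other cells, a log2 difference of 0.36 (SE 0.12, limma adjusted p = 0.0125). Nfkbie, Tnfaip2 and Nfkbia were each higher in gated cells in 16 of 18 libraries. Tnfaip3, at 1016 ± 461 CPM in gated and 890.3 ± 455 CPM in other cells, differed by 0.13 on the log2 scale (limma adjusted p = 0.395) and was higher in gated cells in 12 of 18 libraries.

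Rel was the 1 gene of the 10 whose mean was lower in gated cells, at 235 ± 129 CPM in gated and 277 ± 151 CPM in other cells (SD, n = 18). It was lower in 15 of 18 libraries, yet the log2 fold change of -0.29 (95% interval -0.60 to 0.03) had a limma adjusted p of 0.113. With 1 library left out at a time, Rel passed in 1 of 18 cases. That case was without control replicate 2, at -0.38 with a limma adjusted p of 0.0363. Without control replicate 4 it was -0.20 with a limma adjusted p of 0.287. Nfkb2 differed by 0.10 on the log2 scale (limma adjusted p = 0.693). Zc3h12a, Nfkb1 and Relb were too low to be tested and averaged 197, 148 and 71.0 CPM in gated and 143, 131 and 50.5 CPM in other cells.

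**Figure D3:**
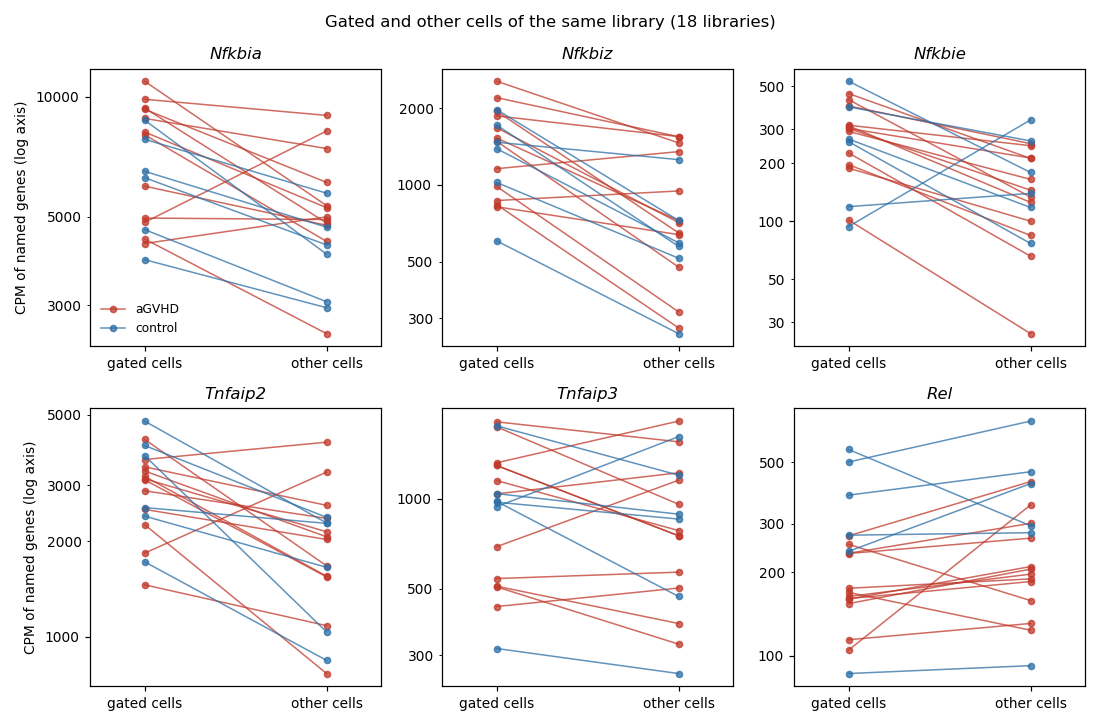
CPM of named genes (log axis) in gated cells, left, and other cells, right, of the same library, 1 line per library (12 aGVHD, 6 control). Lines fall to the right in 16 of 18 libraries for Nfkbia, Nfkbiz, Nfkbie and Tnfaip2 and rise in 15 of 18 for Rel.

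The 2 kinds of cells also differed in depth and RNA makeup. Unnamed gene models took 44.0% of transcripts in aGVHD and 44.9% in control gated cells, and 59.2% and 50.8% in other cells. All 9 mitochondrial transcripts tested were lower in gated cells, with a median log2 fold change of -0.52. When each cell was thinned to 500 transcripts, Nfkbiz stayed called (0.45, limma adjusted p = 0.0109), while Nfkbia (-0.016, adjusted p = 0.921) and Tnfaip2 (0.06) did not and Nfkbie could not be tested. Leaving out 96 cells whose total exceeded 4 times the median of the library, or in which Kcnq1ot1 took over 2%, kept Nfkbiz (0.65) and lost Nfkbia (0.05) and Tnfaip2 (0.15), and Nfkbie could again not be tested. The part of depth and RNA makeup in these results was not tested further.

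Within aGVHD libraries 3 genes were higher in gated cells (38.6% of 1097 genes were called, 16.9% higher and 21.7% lower), Nfkbie by 0.86, Nfkbiz by 0.77 and Tnfaip2 by 0.47, and within control libraries 2 were (9.39% of genes were called, 5.65% higher and 3.74% lower), Nfkbiz by 0.99 and Tnfaip2 by 0.78 on the log2 scale. The difference between these was tested as an interaction, and none of 7 genes passed (0% of 1097 genes; 38 at an unadjusted p under 0.05; limma). The largest interaction estimate was that of Nfkb2, at 0.65 (95% interval -0.21 to 1.51), and all 7 genes had an adjusted p of 0.999 (limma).

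Other parts of the pathway were also set in gated against other cells, where 22.1% of all 1097 genes were higher and 30% lower. Among 6 receptors and adaptors, the tumour necrosis factor receptor genes Tnfrsf1a (log2 fold change 1.18) and Tnfrsf1b (0.62) were higher and the adaptor gene Malt1 (-0.62) lower. Nfkbid, the 1 further IκB gene tested, was higher by 0.51, and of 5 further negative regulators N4bp1 (0.68) and Tax1bp1 (0.42) were higher.

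Of 11 target cytokines and chemokines, 4 were higher in gated cells and 1 lower. Il1b, the gene of interleukin-1β, was higher by 0.66, Csf1 by 0.52, Cxcl2, a neutrophil chemoattractant, by 0.37 and Il1rn by 0.34, while Cxcl1 was lower (-0.89). Of 19 other targets 9 were higher, among them Plaur (0.73), Clec4e (0.68) and Pim1 (0.65), and Cd83, known from activated dendritic cells, was lower (-1.97). Macrophage and monocyte markers outside the gate's own genes summed to 1032 to 4154 CPM in aGVHD and 657 to 2957 CPM in control gated cells, and to 1111 to 14397 and 3665 to 10715 CPM in other cells. C1qa, which the gate limits, and Mrc1 were at 0 in control gated cells. The list medians were 0.28 for the cytokines and 0.30 for the other targets, beside -0.09 over all 1097 genes. Of 7 mRNAs known to be cut by Regnase-1, 3 were higher in gated cells, Nfkbiz, Il1b and Nfkbid, and none lower.

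Over gated cells of 19 libraries, 27 of the 28 pairs among the 8 genes tested had a positive r of log2 CPM after subtracting the mean of each group and title set, with a median of 0.32. The share of positive pairs among all genes was not computed. The highest were Nfkbiz with Tnfaip3 at 0.90 and Nfkbia with Nfkbiz at 0.89, and Rel with Tnfaip2 stood at 0.78. The gene whose pattern was most like that of Nfkbia in gated cells was sought over 903 genes by the same Pearson's r. Nfkbiz came first (r 0.89, Spearman's rho 0.85) and Tnfaip3 second (r 0.87, rho 0.88). They were followed by Zfp36 (0.83), which encodes an mRNA-destabilising protein, and by Gadd45b (0.82) and Ier3 (0.80), both stress-response genes. The median r over all 903 genes was 0.06 and the 95th percentile 0.55. The other members tested ranked far lower, with Zc3h12a at rank 165 (r 0.38), Tnfaip2 at 219 (0.31), Rel at 268 (0.25), Nfkbie at 297 (0.22) and Nfkb2 at 396 (0.11). In other cells, over 19 libraries, r was 0.82 for Nfkbia with Nfkbiz, 0.73 for Nfkbia with Tnfaip3 and 0.75 for Nfkbiz with Tnfaip3. The likeness of these 3 genes was thus not particular to gated cells. Between gated and other cells of 18 libraries, r was 0.73 for Tnfaip3, 0.58 for Nfkbiz and 0.49 for Nfkbia. The other members tested there lay between 0.11 for Nfkb2 and 0.62 for Rel. All these values describe the libraries, whose genes share depth and cell makeup.

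The likeness of Nfkbia, Nfkbiz and Tnfaip3 went with a split among the aGVHD libraries, seen after the values were known. The split was set at the widest gap in Nfkbia itself, and Nfkbiz and Tnfaip3 were the 2 genes most like it. Their separation is therefore no separate evidence, and how many of all genes split the same way was not counted. The same 5 of 12 aGVHD libraries, 4 with dated and 1 with G1 titles, were lowest for all 3 genes: 4286 to 5967 CPM against 8030 to 10935 CPM in the other 7 for Nfkbia, 821 to 1158 against 1484 to 2554 CPM for Nfkbiz, and 436 to 691 against 1036 to 1802 CPM for Tnfaip3. The ranges of these 5 and those 7 libraries overlapped for each of the other 7 genes. Within the 7 libraries of the upper range, r with Nfkbia was 0.40 for Nfkbiz (rho 0.07) and 0.78 for Tnfaip3 (rho 0.86), and within the 7 control libraries it was 0.87 and 0.65. With each cell thinned to 500 transcripts, r over all 19 libraries was 0.58 and 0.69, and without the 2 libraries farthest from the median it was 0.84 for both.

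**Figure D4:**
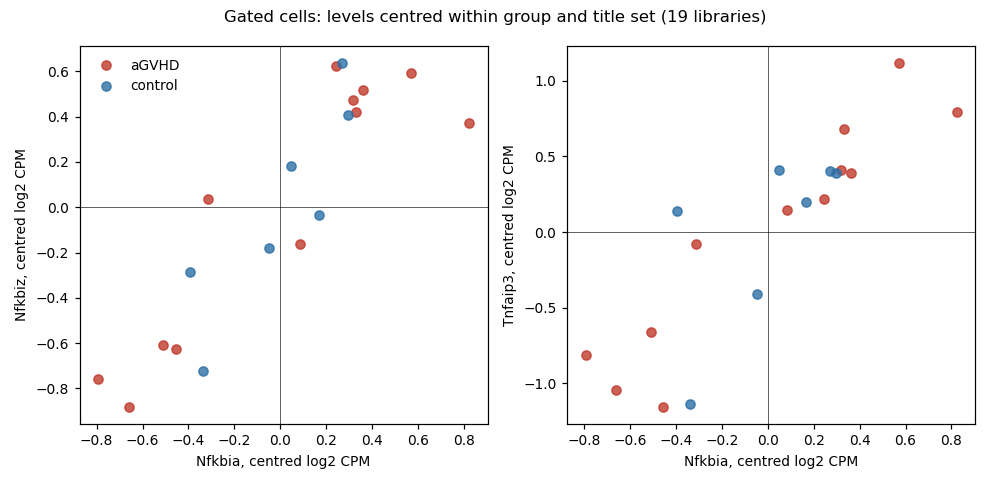
Log2 CPM, scaled as in the tests, of Nfkbiz (left) and Tnfaip3 (right) against that of Nfkbia in gated cells. Each is centred within group and title set, with 1 point per library (12 aGVHD, 7 control). Both genes run with Nfkbia (r 0.89 and 0.87). The aGVHD points fall into a lower and an upper range along the Nfkbia axis. Along the Nfkbiz axis these ranges overlap, with replicate 6 of the lower range at 0.04 and replicate 2 of the upper at -0.16.

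The relation could also be read among cells of 1 library, after thinning each gated cell to 500 transcripts. These 500 include unnamed gene models, so the number of named transcripts still varied from cell to cell. The same counts were not made for genes outside the set, and the part of depth in them was not tested. Gated cells with an Nfkbiz transcript held 3.93 ± 1.31 Nfkbia transcripts, against 1.62 ± 0.54 in gated cells without one (mean ± SD over 18 libraries), and were higher in 17 of 18 libraries. Cells with a Tnfaip3 transcript held 4.08 ± 2.02 Nfkbia transcripts, against 1.82 ± 0.54 in cells without one, and were higher in 14 of 15 libraries. Tnfaip3 itself averaged 0.539 transcripts in cells with Nfkbiz and 0.218 in cells without, higher in 15 of 18 libraries. Most of the other genes ran the same way when cells were set by Nfkbia instead, over 16 libraries. Tnfaip2 averaged 1.20 transcripts in cells with Nfkbia and 0.579 in cells without, higher in 16 and lower in 0 libraries. The mean was higher in cells with Nfkbia in 13 and lower in 1 for Nfkb2, in 13 and 3 for Nfkbie, in 11 and 2 for Zc3h12a, in 10 and 0 for Relb and in 9 and 3 for Rel. Nfkb1, at 0.0512 ± 0.0560 transcripts in cells with Nfkbia and 0.0606 ± 0.0667 in cells without, did not differ beyond its spread. It was higher in 5 and lower in 9 libraries. Set by Nfkbiz, over 18 libraries, the mean was higher in 8 and lower in 7 for Nfkb2 and in 8 and 8 for Nfkbie. It was higher in 7 and lower in 9 for Rel, in 6 and 5 for Relb and in 11 and 2 for Zc3h12a. Set by Tnfaip3, over 15 libraries, the counts were 7 and 6 for both Nfkb2 and Rel and 11 and 3 for Nfkbie. They were 6 and 4 for Relb and 8 and 4 for Zc3h12a.

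After thinning, an Nfkbia transcript was found in 70.2% of gated cells in aGVHD and 71.0% in control libraries, and in 44.3% and 50.4% of other cells. Tnfaip2 was found in 50.4% and 61.3% of gated cells, Nfkbiz in 30.7% and 34.7%, and Tnfaip3 in 21.99% and 28.2%. Rel was found in 5.85% of gated cells in aGVHD (exact 95% interval 4.06% to 8.12%) and 11.3% in control libraries (6.31% to 18.2%), and in 2.60% and 7.69% of other cells. Averaged over libraries with at least 10 gated cells, the thinned Rel share was 5.46% ± 3.99 (SD, n = 12) in aGVHD. In control libraries it was 12.9% ± 6.63 (SD, n = 7). Without thinning the Rel shares in gated cells were 23.2% and 35.5%, at median totals of 2453.5 and 2777.5 transcripts per cell. Intervals cover counting error over pooled cells only and leave out the spread among libraries. No class of sorted cells known to lack these genes was at hand to set a background share.

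**Figure D5:**
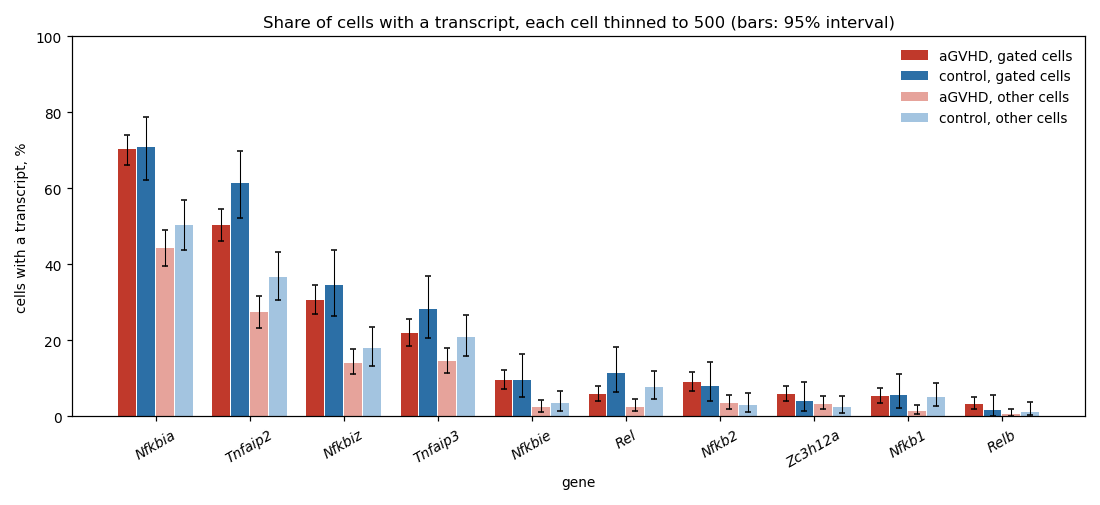
Share of cells with at least 1 transcript of each gene (vertical axis, percent) after thinning each cell to 500 transcripts, for gated cells of aGVHD and control libraries and other cells of aGVHD and control libraries, with exact 95% binomial intervals. Nfkbia is found in 70.2% and 71.0% of gated cells and Rel in 5.85% and 11.3%. The intervals pool cells over libraries and leave out the spread among libraries.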

How the data were processed

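Each of the 22 libraries, 12 aGVHD and 10 control by their descriptions, came as a deposited table of genes by barcodes. Its values are other than plain counts: per the file contents, each value above 0 that the authors deposited is the transcript number estimated for some whole number of distinct identifiers in a pool of 4096 (1419098 values, 0 failing at a tolerance of 1e-06), not normalised for depth. They were rounded to whole transcripts. bcl2fastq 2.17.1.14 and BWA 0.6.2-r126 are named in the submitters' processing notes, and the build used for mapping was not given in the sources used here. Unnamed gene models (6397 of 23091 genes) took 50.1% of transcripts in kept cells. They stayed out of the CPM levels, but counted in the sums and totals of the tests and in the log2 CPM behind each r. Relb has no row in 5 libraries and Nfkb2 none in 1, which were read as 0.

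Transcripts were summed per library over cells of at least 500 transcripts, inside or outside the gate, in libraries with at least 10 such cells. At the gate's edge 49 gated cells had exactly 5 transcripts of S100a8 and S100a9 and 58 other cells had 4; 70 other cells were over the C1q limit. Because a count model was not accepted for this unit, sums were tested with limma 3.58.1 (R 4.3.3): log2 CPM with voom weights, trimmed-mean scaling (0.3 of ratios, 0.05 of levels), a filter on low sums (at least 15 transcripts in all, and 10 at the median size of a sum), title set as a covariate or library as a block, and Benjamini-Hochberg adjustment at 0.05 over all genes tested. The steps were tested on simulated data. No doublet caller was run. Promoters were searched and shares computed with Python 3.11.15 (pandas 2.3.3, scipy 1.17.1). Alternatives changed the scaling, filter, model, cell minimum, gate, depth, title sets and libraries; 2 of them, scaling by all transcripts and sums without plasma cell and epithelial genes, were added after seeing the data.

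The genes and lists were chosen with earlier results of these data known. All 10 genes are named in every comparison; from the lists, called genes and the 4 with the highest level in gated cells could be named, and for likeness the 5 genes with the highest r with Nfkbia. Comparisons between groups in gated, other and all kept cells share libraries.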

Additional observations from a re-analysis of the deposited data

Results flagged for a closer look

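Of 30 groups of 4 to 10 libraries checked, 2 held a library far from the rest of its group, where chance gives about 1 in 20. Nfkb1 was at 30.7 CPM in other cells of control replicate 1, while the nearest of the other 6 control libraries was at 151 CPM, a gap of 0.785 of the group's range. Nfkbiz was at 2164 CPM in all kept cells of control replicate 10, a library of 11 cells, while the nearest control library was at 1331 CPM, a gap of 0.467 of the group's range, just past the limit.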

How the results depend on the processing

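Between the groups, the count of called members was 0 in gated and in other cells, and for the interaction 0, under each alternative. Leaving out 1 library gave 0 to 1 in gated cells (Rel, without control replicate 1), 0 to 1 in all kept cells, 4 to 5 for gated against other cells, and 0 for other cells and the interaction. In all kept cells the count of 1 became 0 with the total of named genes for scaling (Rel -0.77, adjusted p = 0.0585), without cells of very high totals (-0.86, 0.0632), in the dated set (-0.47), in the G1 set (-1.30), with at least 20 cells (-0.82, 0.143) and with the total of all transcripts (-0.78, 0.256); with thinned cells it was 0 and Rel could not be tested (limma throughout). With no low-count filter the count stayed at 1, but the gene was Nfkbia (0.63, adjusted p = 0.0173) and Rel was at -0.56. Rel was negative in all 14 alternatives in which it was tested there. The same-numbered dated libraries did not pair (r -0.05 to 0.22 over 6 pairs, own number highest in 1); a replicate block gave 0 calls (Rel -0.68, adjusted p = 0.308), as did those libraries without it (0; -0.58, 0.369).

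For gated against other cells the count of 4 became 1 without cells of very high totals, 1 with thinned cells and 2 in the G1 set; Nfkbiz was called in all 16 alternatives (0.45 to 1.23), and Nfkbia turned to -0.016 with thinned cells. Scaling by all transcripts moved the median of all genes to 0.32, beside -0.09 with trimmed means, and the split to 423 higher and 58 lower calls, beside 242 and 329; Tnfaip3 then passed (0.51, adjusted p = 0.0232) and Rel was at 0.06. In other cells it moved the median to -0.24. Calls over all genes ranged over 0 to 14 in gated cells (1 as reported), 0 to 16 in other cells (0), 3 to 7282 in all kept cells (152), 66 to 817 between gated and other cells (571) and 0 to 13 for the interaction (0); the causes were not tested. Depth limits Nfkb1, Relb and Zc3h12a most.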
